A study of Mus musculus with 19 samples.

Results

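Aminoacyl-tRNA synthetases are the enzymes that load each tRNA with its amino acid, and mammalian cells make a cytosolic and a mitochondrial set of them, all encoded in the nucleus. The members described here are 36 mouse genes, taken by gene symbol from the 55401 gene identifiers counted: 20 that code for cytosolic enzymes, and 16 with a symbol ending in 2 that code for enzymes imported into mitochondria. The symbols were looked up in the GENCODE M21 annotation of mm10, where Mars1 is listed as Mars. The rule uses symbols and no measured value, although it was proposed when earlier results of these data were known. Gars and Kars stand with the cytosolic genes, although each codes for the glycyl or lysyl enzyme of both compartments. All 36 passed the filter on low counts, so none was lost from the tests.

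The cytosolic enzymes supply translation of nuclear transcripts, while the mitochondrial enzymes supply only the small set of proteins encoded by mitochondrial DNA. Several of the cytosolic enzymes are bound in a multi-synthetase complex held together by scaffold proteins. When the unfolded protein response or another stress leads to phosphorylation of the initiation factor eIF2, general initiation slows and the transcription factor ATF4 is made, and many cytosolic synthetase genes are textbook targets of ATF4 and its partners at C/EBP-ATF response elements.

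The study measured polyadenylated RNA in wild-type C2C12 cells, an immortalised line of mouse myoblasts, under thapsigargin. Thapsigargin blocks the calcium pump of the endoplasmic reticulum, empties its calcium store and so starts the unfolded protein response. Cells received 100 nM thapsigargin or the vehicle DMSO for 2, 6 or 12 h, and a recovery group received the drug for 6 h and then drug-free medium for 48 h. Each group had 3 libraries except the 12 h groups, which had 2, giving 19 libraries in 7 groups, and the recovery group had no vehicle control of its own age. All groups share the 1 cell line, so the spread between libraries is not a spread between animals or lines.

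Between 17305962 and 40964140 reads were assigned to genes per library. The myoblast markers Myod1, Myf5, Des, Cdh15 and Vim were detected in all 19 libraries, with Myod1 at 4.38 to 219 CPM and Myf5 at 8.14 to 272 CPM. Pax7, a further myoblast marker, was low at 0 to 5.53 CPM and at 0 in 1 library. Adgre1 and Epcam, which mark macrophages and epithelium, were at 0 in all 19. Other markers of those lists were present at low levels, with Cd68 at 2.04 to 10.5 CPM and Krt8 at 0.140 to 13.9 CPM, Krt18 at up to 10.6 CPM, and Csf1r and Cdh1 at 0 in 2 libraries each. Thapsigargin raised Atf4 by 2.03, 1.52 and 1.59 on the log2 scale at 2, 6 and 12 h, Cebpg, which codes for its partner C/EBP gamma, by 1.80, 2.18 and 1.42, the stress gene Ddit3 by 4.35, 4.44 and 4.01, and Asns, the asparagine synthetase that is a known ATF4 target, by 0.80, 1.88 and 2.04. Replicate 3 of DMSO at 2 h and replicate 1 of recovery stood apart: mitochondrially encoded transcripts took 15.8% and 14.9% of their reads, against 1.41% to 3.07% in the other 17, and the counts of members called are also given without these 2 libraries. Libraries also differed in how long and short transcripts were represented. The median log2 deviation from the mean over libraries was taken for coding genes with a longest transcript from 4250 bases on, less that for genes up to 2583 bases. It ran from 0.65 to 1.09 at 2 h, from 0.39 to 0.59 at 12 h, from -1.24 to -0.03 at 6 h and from -1.42 to -0.13 in recovery.

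The 2 sets of enzymes were expressed at very different levels. CPM are reads of the gene scaled to the library size after TMM scaling, which multiplies each library size by a factor. They are therefore not plain shares of all gene reads. Levels between genes are given as CPM per kilobase of the longest transcript, CPM per kb. In DMSO at 6 h the median was 72.1 CPM per kb over the 20 cytosolic genes and 8.81 over the 16 mitochondrial genes. In that group Vars, the valyl enzyme, was the highest cytosolic gene at 189 CPM per kb and Iars, the isoleucyl enzyme, the lowest at 27.0 CPM per kb. Mitochondrial genes ran from 1.08 CPM per kb for Mars2, the methionyl enzyme, to 33.0 CPM per kb for Tars2, the threonyl enzyme. After 6 h of thapsigargin the cytosolic median was 172 CPM per kb and the mitochondrial median 7.69 CPM per kb. The typical error of a single gene was larger in the mitochondrial set, with a median standard error (SE) of the log2 difference at 6 h of 0.32 against 0.23.

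At 6 h of thapsigargin, 14 of 20 cytosolic synthetase genes rose and none fell, while 2 of 16 mitochondrial genes rose and none fell (edgeR's quasi-likelihood test, adjusted p under 0.05 after Benjamini-Hochberg adjustment over the 18039 genes tested). Over all genes tested, 21.8% were called, 13.0% higher and 8.79% lower. The median log2 difference was 1.29 over the cytosolic genes and 0.14 over the mitochondrial genes, beside 0.01 over all genes. The 3 drug-treated libraries lay above all 3 vehicle libraries for 14 cytosolic genes and 4 mitochondrial genes, and below them for 0 and 2, where 21.0% and 16.4% of all genes did so. DESeq2 called 14 and 2 as well, and 4765 over all genes. Values are relative to the other RNA of the same library and not absolute amounts. A rise of a transcript and a fall of the other RNA therefore cannot be told apart. Without the 2 libraries of high mitochondrial share the cytosolic count was again 14, while 5 mitochondrial genes were called, of which 3 were higher and 2 lower. Over all genes 6588 were called in that fit, against 3926 with all libraries.

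Wars, the tryptophanyl enzyme (chr12:108860030-108894174 in mm10), had the largest rise. Its level was 166, 138 and 255 CPM in the 3 DMSO libraries at 6 h and 530, 962 and 837 CPM in the 3 thapsigargin libraries. The groups were fully separated, with a 4.16-fold rise (log2 difference 2.06, SE 0.42, adjusted p = 0.002). Aars, the alanyl enzyme (chr8:111033144-111057664), stood at 525, 431 and 525 CPM with DMSO and 1299, 1695 and 1681 CPM with the drug, and rose by 1.66 (SE 0.17, adjusted p = 3.9e-06). The lowest treated library lay far above the highest control. Exons of Aars share 1326 bases with Exosc6 on the same strand. The files set aside 5.49% to 8.18% of reads as ambiguous, and how many of them lie on stretches that members share with other genes was not tested. Nars, the asparaginyl enzyme, went from 247, 298 and 199 CPM to 1028, 615 and 659 CPM, a rise of 1.63 (SE 0.23, adjusted p = 1.2e-04), and its treated libraries spread more widely, with replicate 1 the highest. Replicate 1 of thapsigargin at 6 h also differed in the representation of long against short transcripts (-0.03, against -1.15 and -0.94 in replicates 2 and 3), and the part of this in the spread was not tested. Gars, the glycyl enzyme that serves both compartments (chr6:55038007-55079500), measured 425, 380 and 525 CPM with DMSO and 1123, 1536 and 1420 CPM with thapsigargin. Its rise of 1.62 (SE 0.20, adjusted p = 2.5e-05) again came with no overlap. Lars, the leucyl enzyme and a member of the complex, went from 202, 187 and 286 CPM to 584, 767 and 697 CPM (log2 difference 1.60, SE 0.30, adjusted p = 0.0011), also without overlap.

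The other cytosolic genes that rose at 6 h were Tars (threonyl, 1.56), Eprs (the fused glutamyl and prolyl enzyme, 1.52), Yars (tyrosyl, 1.42), Iars (1.41), Sars (seryl, 1.39), Cars (cysteinyl, 1.18), Rars (arginyl, 0.95), Mars1 (0.72) and Farsb (the beta subunit of the phenylalanyl enzyme, 0.65). Tars had the tightest replicates, with 328, 324 and 321 CPM in the controls and 962, 950 and 956 CPM in the treated libraries, and so a difference far larger than the spread. Of the 14 calls, those of Aars, Eprs, Gars, Lars, Nars, Rars, Tars, Wars and Yars held when any 1 of the 6 libraries was left out. The call of Iars ended without DMSO replicate 3 or thapsigargin replicate 1 (highest adjusted p = 0.06), and that of Mars1 without DMSO replicate 2 or thapsigargin replicate 2 or 3 (highest adjusted p = 0.085). The calls of Cars, Sars and Farsb each ended without DMSO replicate 1 or 2 or thapsigargin replicate 2 or 3 (highest adjusted p = 0.095, 0.11 and 0.19). Exons of Mars1 and Ddit3 share 68 bases on opposite strands. Whether counting used the strand is not given in the sources used here, so it is not known whether reads from that stretch were counted or set aside, and the part of Ddit3 in the Mars1 value was not tested.

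For 6 cytosolic genes the test was not passed. Qars, the glutaminyl enzyme, was at 108, 114 and 81.3 CPM in the controls and 98.9, 75.2 and 82.8 CPM with the drug, so the groups overlapped (log2 difference -0.24, SE 0.24, adjusted p = 0.54). Kars, the lysyl enzyme, had a difference of -0.05 (SE 0.33), Dars, the aspartyl enzyme, 0.16 (SE 0.23), Hars, the histidyl enzyme, 0.23 (SE 0.19), Farsa, the alpha subunit of the phenylalanyl enzyme, 0.24 (SE 0.20), and Vars 0.31 (SE 0.45). The SE of Vars leaves room for a change of a size that was called in other members, whereas that of Hars or Farsa is among the smaller ones.

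Members were next read by complex, by catalytic class and by compartment. Of the 8 enzymes bound in the multi-synthetase complex, 5 rose at 6 h (Eprs, Iars, Lars, Mars1 and Rars) and Dars, Kars and Qars did not pass, with a median of 0.83. Of the 12 outside the complex, 9 rose, with a median of 1.41. The scaffold genes of the complex, Aimp1, Aimp2 and Eef1e1, had differences of 0.26 (SE 0.18), 0.18 (SE 0.34) and 0.27 (SE 0.30), and 0 of 3 passed. The 2 catalytic classes, which differ in the fold of the active site, both held genes that rose: 7 of 9 cytosolic class I genes and 6 of 10 cytosolic class II genes, with Eprs in neither since it carries an activity of each. The pair that serves both compartments was split, since Gars rose and Kars did not pass. The difference between these subgroups was not tested.

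**Figure D1:**
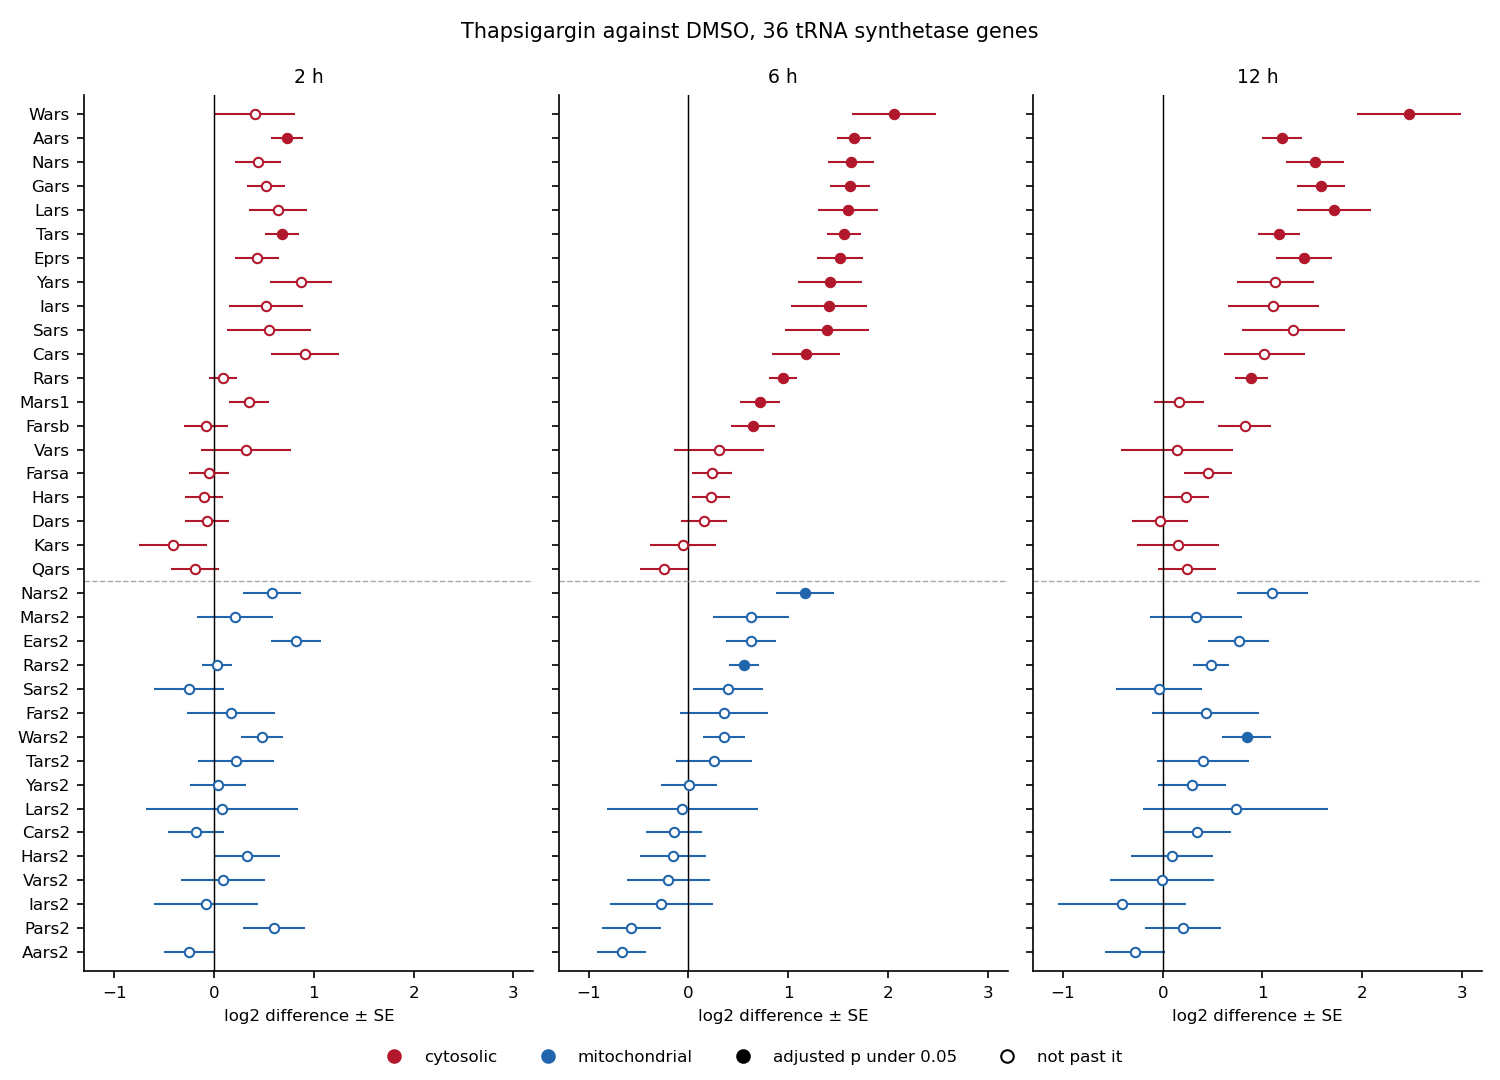
Log2 difference between thapsigargin and DMSO (x axis, ± SE) for each synthetase gene (y axis) at 2, 6 and 12 h, with 20 cytosolic genes in red above the dashed line and 16 mitochondrial genes in blue below it. Filled points passed adjusted p 0.05; at 6 h 14 red points and 2 blue points are filled, and Wars lies furthest right at 6 and 12 h.

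The sequence before the start of transcription was available from RefSeq (build GRCm38.p6) for 27 of the 36 members, 13 cytosolic and 14 mitochondrial, and not looked at for Cars, Hars, Lars, Nars, Rars, Vars, Wars, Hars2 and Pars2. It was searched on both strands for TGATGNAA, the core letters of a C/EBP-ATF response element, where N is any base. In the 250 bases before the start, the letters were present in 3 of 13 cytosolic members, Aars, Gars and Tars, and in 0 of 14 mitochondrial members, while 3.45% of 32851 RefSeq promoters held them. Counting also the 50 bases after the start, Iars and Yars held them too, which gave 5 of 13, beside 3.97% of promoters. All 5 are among the 9 cytosolic members with a sequence that rose at 6 h, and 0 of the 4 that did not pass at 6 h held a match. The stretches below show where the letters lie, with the matched bases in capitals (TTNCATCA is the same motif read on the other strand). Each is written 5′ to 3′ on the strand of its gene. The first 5 are the 120 bases that end just before the start, of which Farsa (not called at 6 h) and Nars2 (called) are shown as members without a match, and the last 2 are 30 bases across the start.
Aars, chr8:111033722-111033841, plus strand: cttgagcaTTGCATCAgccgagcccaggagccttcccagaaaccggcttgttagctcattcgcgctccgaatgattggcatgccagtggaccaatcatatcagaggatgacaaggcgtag
Gars, chr6:55037881-55038000, plus strand: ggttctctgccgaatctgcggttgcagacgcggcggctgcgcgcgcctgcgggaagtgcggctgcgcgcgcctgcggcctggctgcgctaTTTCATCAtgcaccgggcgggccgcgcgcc
Tars, chr15:11399659-11399778, minus strand: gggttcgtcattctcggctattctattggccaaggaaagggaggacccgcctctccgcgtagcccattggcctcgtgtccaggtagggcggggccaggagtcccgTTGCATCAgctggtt
Farsa, chr8:84856866-84856985, plus strand: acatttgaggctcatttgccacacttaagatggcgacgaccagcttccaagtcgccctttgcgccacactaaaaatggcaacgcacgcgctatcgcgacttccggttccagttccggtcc
Nars2, chr7:96951407-96951526, plus strand: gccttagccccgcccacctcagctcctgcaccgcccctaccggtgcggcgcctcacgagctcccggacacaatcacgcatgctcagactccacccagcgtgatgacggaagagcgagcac
Iars, chr13:49682126-49682155, plus strand: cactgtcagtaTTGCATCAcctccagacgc
Yars, chr4:129189895-129189924, plus strand: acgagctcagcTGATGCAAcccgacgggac

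Counted from the RefSeq start of transcription, the match begins 112 bases before it in Aars, 30 before it in Gars and 15 before it in Tars. This start can differ from the GENCODE gene coordinates given above. The Aars, Iars and Yars stretches lie inside the GENCODE spans, which begin at chr8:111033144, chr13:49682100 and chr4:129189760. The Tars and Nars2 stretches run past the GENCODE starts at chr15:11399665 and chr7:96951505. In Iars the match begins at base 8 and in Yars at base 4 of the transcript, and Aars has another match at base 10. Beside these positions stand rises at 6 h of 1.66, 1.62, 1.56, 1.41 and 1.42, while Eprs, which rose by 1.52, had no match in its window. A match describes letters in this window and not binding, and 7 of the 20 cytosolic members, Wars among them, were not searched.

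Among the 16 mitochondrial genes at 6 h, Nars2, the asparaginyl enzyme (chr7:96951505-97064758), had the largest difference. It measured 8.0, 9.87 and 5.65 CPM with DMSO and 21.5, 15.2 and 16.4 CPM with thapsigargin, with no overlap, and rose by 1.17 (SE 0.29, adjusted p = 0.0088). Rars2, the arginyl enzyme (chr4:34614957-34660167), was at 34.2, 35.3 and 35.5 CPM and then at 47.9, 56.6 and 50.3 CPM, a smaller but tight rise of 0.56 (SE 0.15, adjusted p = 0.012). The call of Nars2 held when any 1 library was left out, and that of Rars2 ended without DMSO replicate 1 or thapsigargin replicate 2 (highest adjusted p = 0.053). Both calls ended with total counts in place of TMM scaling, and that of Rars2 also with no filter on low counts. Exons of Nars2 share 284 bases with a noncoding transcript on the opposite strand, and its part in the value was not tested.

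Aars2, the alanyl enzyme of mitochondria (chr17:45506841-45520843), had values in the other direction, 32.6, 31.0 and 35.3 CPM with DMSO and 17.9, 22.7 and 21.5 CPM with the drug. The groups did not overlap, yet the difference of -0.67 (SE 0.25) did not pass the test (adjusted p = 0.065). Pars2, the prolyl enzyme, was similarly separated at 11.1, 10.6 and 10.8 CPM against 6.58, 7.88 and 7.37 CPM, with a difference of -0.57 (SE 0.30, adjusted p = 0.21). Ears2, the glutamyl enzyme, was at 14.8, 13.7 and 20 CPM against 21.2, 28.6 and 25.4 CPM, separated and higher, and its difference of 0.63 (SE 0.25, adjusted p = 0.087) did not pass either. Without the 2 libraries of high mitochondrial share, neither of which belongs to the groups compared, all 3 were called: Aars2 at -0.70 (adjusted p = 3.5e-04), Pars2 at -0.60 (adjusted p = 0.0025) and Ears2 at 0.60 (adjusted p = 0.011). The remaining 11 mitochondrial genes had differences between -0.27 for Iars2 and 0.63 for Mars2, and none passed.

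**Figure D2:**
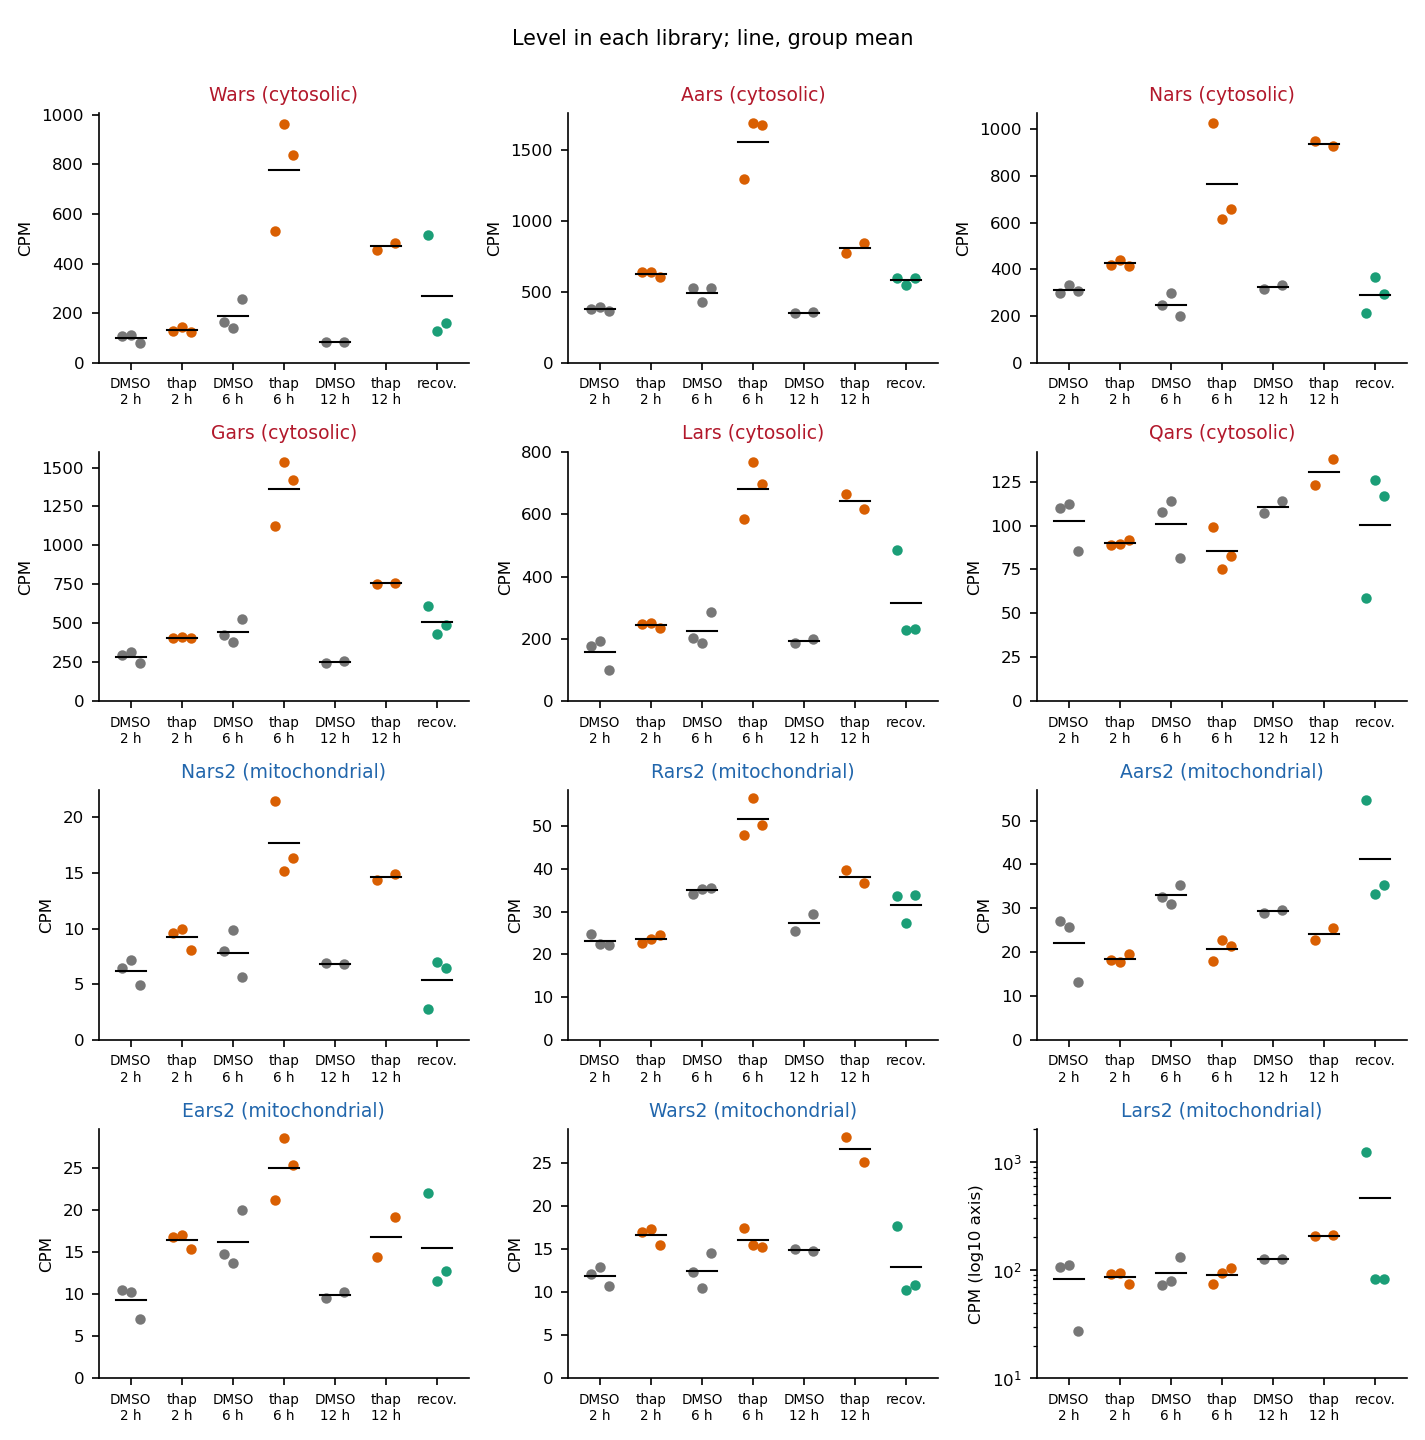
Level in CPM (y axis; a log10 axis for Lars2) of 12 synthetase genes in each of the 19 libraries by group (x axis; thap, thapsigargin; recov., recovery), with a line at the group mean. The treated libraries at 6 h lie above the DMSO libraries at 6 h for Wars, Aars, Nars, Gars, Lars, Nars2, Rars2 and Ears2 and below them for Aars2, and 1 recovery library of Lars2 stands at 1225 CPM.

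Summed over each set, the contrast between compartments was visible in every library. The 20 cytosolic genes together took 5538, 4950 and 6651 CPM in DMSO at 6 h and 11105, 14354 and 13421 CPM in thapsigargin. The 15 mitochondrial genes other than Lars2, which is left out for the library described below, took 467, 434 and 513 CPM and then 463, 570 and 525 CPM. The treated libraries were all higher in the first sum, and the groups overlapped in the second. The ratio of the sums does not depend on library scaling, and it went from 11.9, 11.4 and 13.0 with DMSO to 24.0, 25.2 and 25.5 with thapsigargin. It was 10.4, 11.3 and 13.3 against 14.0, 14.6 and 14.1 at 2 h, and 9.58 and 9.85 against 19.4 and 18.7 at 12 h, so the treated libraries had the higher ratio at each time.

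**Figure D3:**
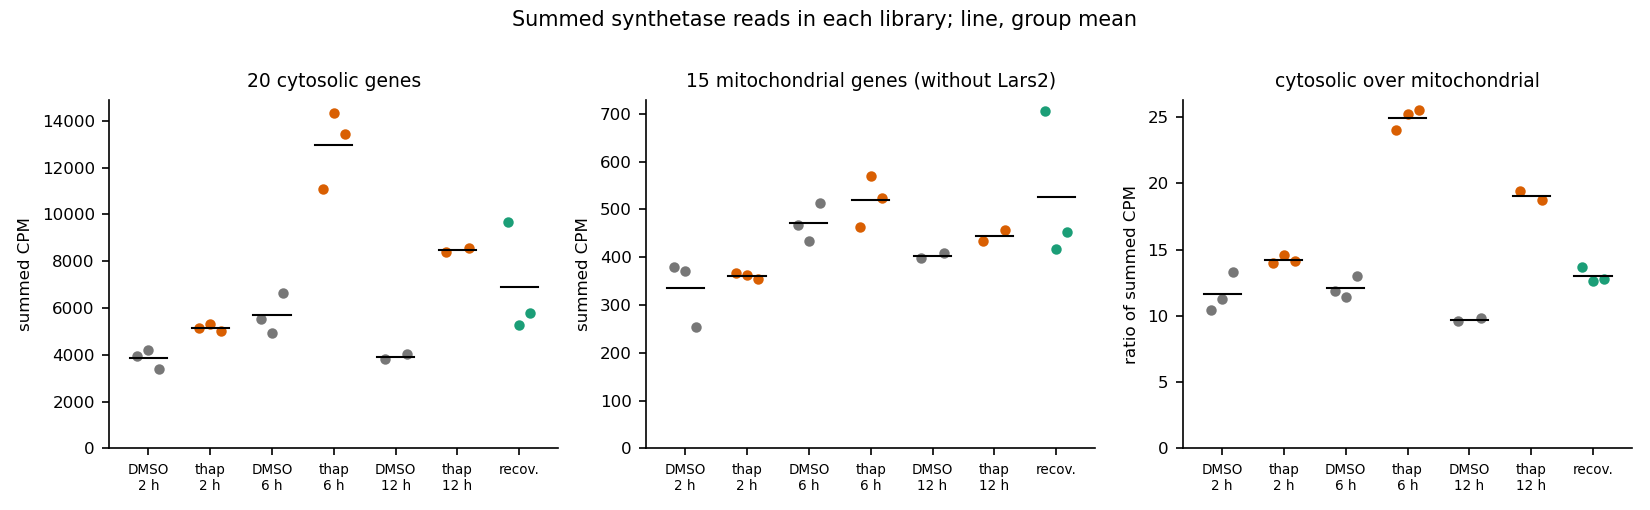
Summed CPM of the 20 cytosolic genes (left), summed CPM of 15 mitochondrial genes without Lars2 (middle) and their ratio (right) in each of the 19 libraries (points) by group (x axis), with a line at the group mean. The ratio lies between 24.0 and 25.5 with thapsigargin at 6 h and between 11.4 and 13.0 with DMSO at 6 h.

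Each mitochondrial gene was also set against the cytosolic gene for the same amino acid within the same library, which gave 17 pairs, since Eprs has 2 counterparts and Fars2 is set against both subunits of the cytosolic phenylalanyl enzyme. At 6 h the log2 ratio of the cytosolic to the mitochondrial gene was higher in all treated than in all control libraries for 13 pairs and lower for 0, with a median change of 1.01. The change was 2.33 for Aars to Aars2, 2.10 for Eprs to Pars2 and 1.69 for Wars to Wars2. It was smallest for the phenylalanyl pair Farsa to Fars2 (-0.12) and the methionyl pair Mars1 to Mars2 (0.09), where the groups overlapped. The asparaginyl pair changed by 0.42 and the arginyl pair by 0.39, since Nars2 and Rars2 rose as well as Nars and Rars. At 2 h the ratio was higher for 5 pairs and lower for 2, with a median of 0.17, and at 12 h, with 2 libraries a group, higher for 15 and lower for 0, with a median of 0.68. These ratios are a description with no test. Exons of Hars and Hars2 share 195 bases on opposite strands, and the part of this in the change of 0.40 at 6 h was not tested.

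**Figure D4:**
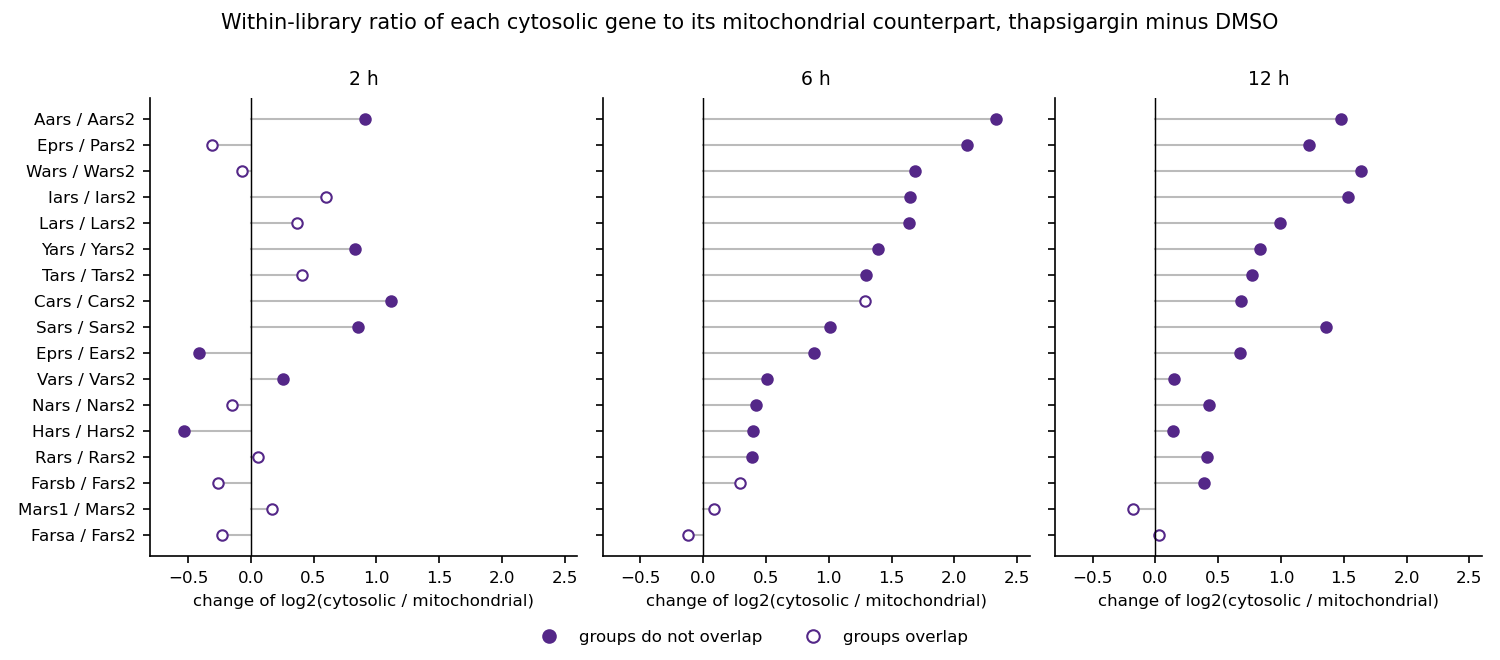
Change between DMSO and thapsigargin (x axis) in the within-library log2 ratio of a cytosolic gene to its mitochondrial counterpart, for 17 pairs (y axis) at 2, 6 and 12 h; filled points mark pairs in which the groups do not overlap. At 6 h 13 points are filled, all to the right of 0, with Aars / Aars2 at 2.33.

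After 2 h the response of the cytosolic set was small. Aars rose by 0.73 (SE 0.16, adjusted p = 0.017), from 377, 393 and 364 CPM to 638, 638 and 606 CPM, and Tars by 0.68 (SE 0.17, adjusted p = 0.031), from 233, 258 and 217 CPM to 379, 395 and 362 CPM. Both genes were separated between the groups with tight replicates. These were the 2 of 20 cytosolic genes that passed, where 4.52% of all genes did, 3.01% being higher and 1.51% lower. The cytosolic median was 0.42, beside -0.04 over all genes, and 13 of 20 genes had all treated above all control libraries, where 19.3% of all genes had, and 2 had them below, where 19.2% of all genes had. Cars, at 0.91 (SE 0.34), and Yars, at 0.87 (SE 0.31), had larger differences with larger errors and did not pass. Of the mitochondrial genes 0 of 16 passed in edgeR's test, 2 had an unadjusted p under 0.05, and DESeq2 called 1, Ears2 (0.84). DESeq2 called 1693 over all genes there, against 816 in edgeR's test. The count at an unadjusted p under 0.05 is not given over all genes. Ears2 measured 10.5, 10.3 and 7.04 CPM with DMSO and 16.8, 17.1 and 15.4 CPM with the drug, which is a complete separation (log2 difference 0.82, SE 0.25, adjusted p = 0.08).

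The 2 h calls each depended on single libraries. That of Aars ended without DMSO replicate 1 or without any 1 treated library (highest adjusted p = 0.077), and that of Tars without any 1 of the 6 (0.057 to 0.12). Without the 2 libraries of high mitochondrial share, of which 1 is a control here, the cytosolic count was 2 and the mitochondrial count was 2, with Ears2 at 0.72 and Aars2 at -0.45. That fit called 1859 over all genes, against 816 with all libraries.

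At 12 h, 8 of 20 cytosolic genes had risen, where 13.1% of all genes were called, 6.29% higher and 6.77% lower. They were Wars (2.47), Lars (1.72), Gars (1.59), Nars (1.53), Eprs (1.42), Aars (1.20), Tars (1.17) and Rars (0.89), and all 8 were also called at 6 h. Wars went from 84.3 and 84.5 CPM to 455 and 483 CPM, a 5.56-fold rise (SE of the log2 difference 0.52, adjusted p = 0.004). Lars stood at 188 and 201 CPM and then at 665 and 618 CPM (SE 0.37, adjusted p = 0.0046). In both genes the 2 treated libraries lay close together and far above the controls. The cytosolic median was 1.07 beside 0.01 over all genes, and all treated lay above all control libraries for 18 of 20 genes, although with 2 libraries a group 37.3% of all genes did so and 35.8% lay the other way. The 6 genes called at 6 h and not at 12 h were Cars, Farsb, Iars, Mars1, Sars and Yars. Mars1 had a difference of 0.16 (SE 0.25) and the other 5 had differences from 0.82 to 1.31 with errors of 0.27 to 0.52. The calls of Lars, Rars and Wars at 12 h ended without DMSO replicate 1 (adjusted p = 0.061, 0.054 and 0.051), where the remaining control is assumed to vary as the other groups do.

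Wars2, the tryptophanyl enzyme of mitochondria (chr3:99141068-99239186), was the 1 mitochondrial gene of 16 that passed at 12 h. It was at 15 and 14.8 CPM with DMSO and at 28.0 and 25.1 CPM with thapsigargin, a rise of 0.84 (SE 0.25, adjusted p = 0.038). The call ended when any 1 of the 4 libraries was left out, with log2 differences of 0.75 to 0.91. It also ended under 5 of the 9 other settings: RLE factors, total counts, no filter, the replicate block, and length and GC offsets. Nars2 was again separated, at 6.93 and 6.78 CPM against 14.4 and 14.9 CPM, with a difference of 1.10 (SE 0.36, adjusted p = 0.059). Lars2, the leucyl enzyme (chr9:123366927-123462666), was at 125 and 125 CPM against 206 and 209 CPM, also separated, but its difference of 0.73 had an SE of 0.93 and did not pass (adjusted p = 0.75). The mitochondrial median was 0.34. When the pair of libraries with high mitochondrial reads was left out, neither of which belongs to the 12 h groups, the counts were 14 cytosolic and 5 mitochondrial genes, all higher, and the mitochondrial genes were Ears2 (0.75), Lars2 (0.72), Nars2 (1.08), Rars2 (0.46) and Wars2. Over all genes that fit called 4539, against 2356 with all libraries.

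Whether the response itself grew between times was tested as a difference of differences. Between 2 and 6 h it was larger for Aars by 0.93 (SE 0.23), for Gars by 1.10 (SE 0.27) and for Rars by 0.86 (SE 0.20), 3 of 20 cytosolic genes, where 3.99% of all genes were called, 2.12% higher and 1.87% lower. Wars had the largest estimate, 1.65, and did not pass. Of the mitochondrial genes 0 of 16 passed in edgeR's test, and 2 had an unadjusted p under 0.05, a count not given over all genes. DESeq2 called 0 of the 16, and 1557 over all genes. Without the 2 libraries of high mitochondrial share the counts were 8 cytosolic genes, all higher, and 1 mitochondrial gene, Pars2, lower (-0.92). Over all genes 1975 were called there, against 719 with all libraries. Between 6 and 12 h 0 of 20 and 0 of 16 passed in edgeR's test, where 0.571% of all genes were called, 0.0388% higher and 0.532% lower. DESeq2 called 0 in both sets and 437 over all genes. At an unadjusted p under 0.05 in edgeR's test both sets held 0, and no such count is given over all genes. The medians of this change were -0.09 and 0.16.

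In recovery, 12 of 20 cytosolic genes were lower than at 6 h of thapsigargin and none was higher, where 25.5% of all genes were called, 11.6% higher and 13.9% lower. Of these 12, 11 had risen at 6 h, and the twelfth was Farsa (-0.76), which had not passed there. The comparison with thapsigargin at 6 h shares those libraries with the drug response at 6 h, so the 2 sets of calls are not independent. The falls were largest for Tars (-1.69), Wars (-1.54), Eprs (-1.50), Aars (-1.42), Gars (-1.41) and Nars (-1.39), followed by Iars (-1.32), Rars (-1.27), Yars (-1.13), Lars (-1.12), Farsb (-0.82) and Farsa. The cytosolic median was -0.97, beside 0.04 over all genes. Tars measured 222, 338 and 329 CPM in recovery against 962, 950 and 956 CPM with the drug, and Aars 596, 548 and 599 CPM against 1299, 1695 and 1681 CPM, both without overlap. The call of Yars ended without thapsigargin replicate 2 or recovery replicate 2 or 3 (highest adjusted p = 0.059), that of Farsb without thapsigargin replicate 2 or recovery replicate 3 (highest 0.057), that of Iars without thapsigargin replicate 1 (0.074), and those of Lars and Wars without recovery replicate 3 (0.051 and 0.052).

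Mitochondrial genes went both ways in recovery against thapsigargin at 6 h, with 2 of 16 lower and 2 higher. These counts are near the shares over all genes, of which 13.9% were called lower and 11.6% higher. This split depended on scaling and on single libraries: it was 3 lower and 0 higher with total counts, where the call of Aars2 ended, and 5 lower and 1 higher without recovery replicate 1. Over all genes those fits called 3342 and 5356, against 4601 in the main fit. Nars2 was at 2.74, 6.98 and 6.5 CPM, below all treated libraries, and fell by 1.69 on the log2 scale (SE 0.30, adjusted p = 6.3e-04). Rars2 was at 33.7, 27.4 and 33.8 CPM and fell by 0.71 (SE 0.15, adjusted p = 0.0023). Aars2 went against both, at 54.8, 33.3 and 35.3 CPM, above all treated libraries, and was higher by 0.99 (SE 0.25, adjusted p = 0.0079). The fourth, Lars2, rested on 1 library: it was at 1225 CPM in recovery replicate 1 and at 81.7 and 81.9 CPM in the other 2 recovery libraries, against 74.0, 94.2 and 104 CPM with the drug. Its difference was 2.35 (SE 0.79, adjusted p = 0.039) with all libraries and -0.15 (adjusted p = 0.81) without recovery replicate 1, and the call also ended without any 1 of the 3 thapsigargin libraries. In that library Lars2 held 63.4% of the reads of the 16 mitochondrial genes, and mitochondrially encoded transcripts were high too. They were also high in DMSO replicate 3 at 2 h, where Lars2 was at 27.2 CPM, the lowest of the 19 libraries, and held 9.63%. The part of these transcripts in the value was not tested. The 1225 CPM stand for 15203 reads in a library of 23591780 gene reads. TMM scaling puts this value above the plain share of those reads.

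Recovery replicate 1 also stood away from the other 2 recovery libraries for several cytosolic genes. Vars was at 2137 CPM against 496 and 615 CPM, Sars at 2044 against 514 and 707 CPM, and Wars at 515 against 129 and 160 CPM, while Iars was at 47.0 against 191 and 143 CPM. It was the highest of the 3 for some members and the lowest for others. It was also the library furthest towards short transcripts (-1.42). TMM scaling raised the CPM of this library above plain shares of its gene reads. Before scaling, Vars had 26536 of 23591780 gene reads there, against 21179 of 38313263 and 22888 of 37093484 in recovery replicates 2 and 3. Without this library and the DMSO library of high mitochondrial share, 18 of 20 cytosolic genes were called against thapsigargin at 6 h, 17 lower and Qars higher (0.50), and 7 of 16 mitochondrial genes, of which Ears2, Nars2, Rars2, Tars2 and Wars2 were lower and Aars2 and Pars2 higher. Over all genes 6249 were called there, against 4601 with all libraries. In that comparison Wars was at -2.43 instead of -1.54, Sars at -1.44 instead of -0.61, Cars at -1.08 instead of -0.53 and Vars at -0.81 instead of 0.15.

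Against DMSO at 6 h, recovery showed 0 of 20 cytosolic and 0 of 16 mitochondrial genes past the threshold, where 0.327% of all genes were called, 0.205% higher and 0.122% lower. By the same edgeR test 2 cytosolic genes were lower and 1 mitochondrial gene was higher at an unadjusted p under 0.05. No count at that p is given over all genes. DESeq2 called 0 in both sets and 424 over all genes, against 59 in edgeR's test. The medians were 0.14 and -0.01, beside 0.06 over all genes. All recovery libraries lay above all controls for Aars and below them for Farsa, Rars and Rars2, where 4.71% and 5.43% of all genes did so. Single genes kept wide margins, from -0.52 for Farsa (SE 0.20) to 0.79 for Sars (SE 0.42) in the cytosolic set, so a p above the threshold does not show that levels were equal. The ratio of summed cytosolic to mitochondrial reads was 13.7, 12.6 and 12.8 in recovery, next to 11.9, 11.4 and 13.0 in DMSO at 6 h, and the groups overlapped. The age of the cultures differs by 48 h between these groups and cannot be told apart from the past exposure.

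**Figure D5:**
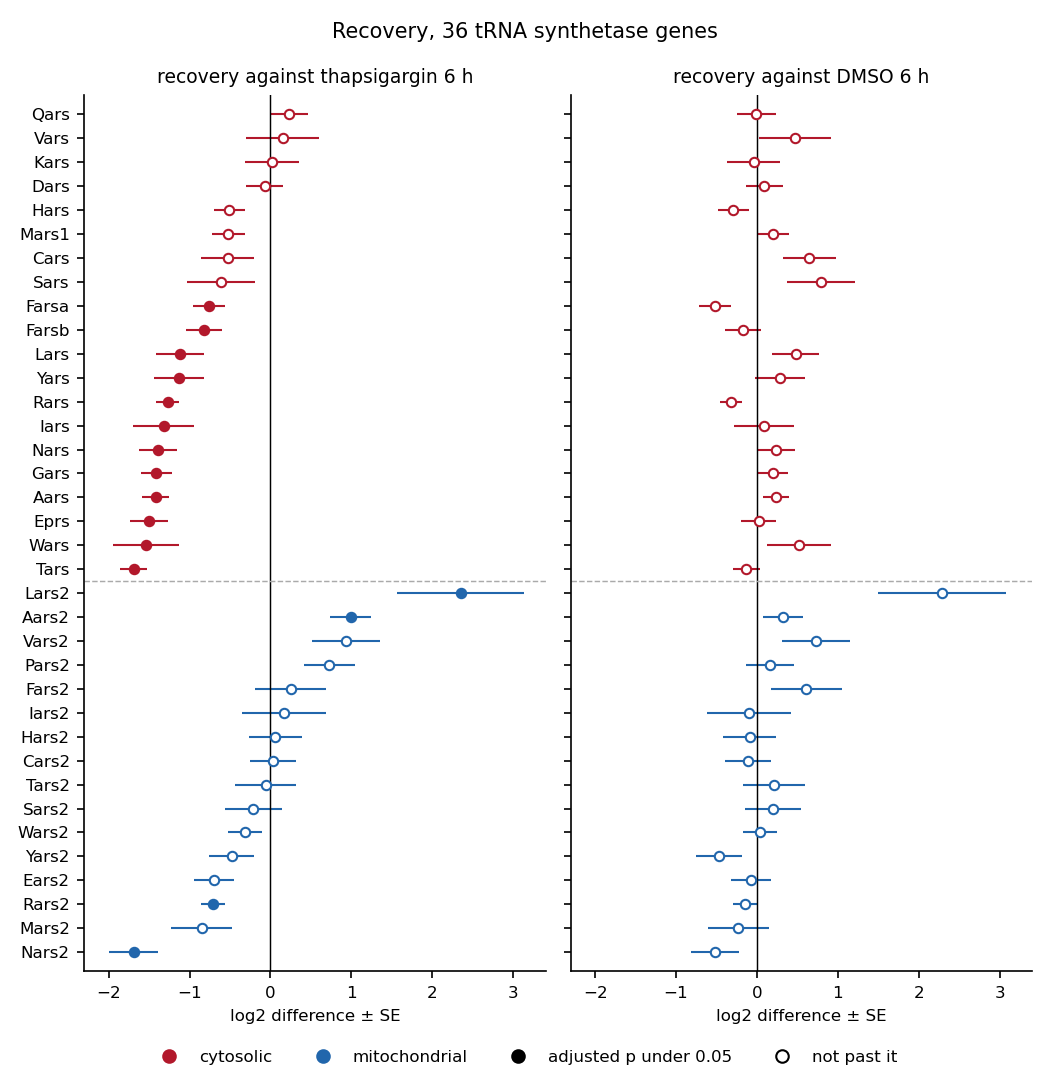
Log2 difference (x axis, ± SE) of recovery against thapsigargin at 6 h (left) and against DMSO at 6 h (right) for the 36 genes (y axis; red cytosolic, blue mitochondrial; filled, adjusted p under 0.05). On the left 12 red points are filled below 0, on the right no point is filled, and the wide bar of Lars2 rests on 1 recovery library.

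Synthetase genes also differed between vehicle groups. From 2 to 6 h of DMSO 12 of 20 cytosolic genes were higher and 3 lower, and 6 of 16 mitochondrial genes higher and 1 lower, where 49.6% of all genes were called, 24.6% higher and 25.0% lower. The higher cytosolic ones were Vars (1.61), Sars (1.40), Yars (1.33), Kars (1.16), Cars (1.13), Farsb (0.88), Farsa (0.66), Gars (0.64), Hars (0.63), Mars1 (0.57), Tars (0.46) and Rars (0.36). The higher mitochondrial ones were Tars2 (1.42), Vars2 (1.23), Pars2 (0.99), Ears2 (0.80), Yars2 (0.70) and Rars2 (0.60). The lower ones were Dars (-0.63), Eprs (-0.61), Iars (-1.05) and Mars2 (-1.06), and each of these 4 calls ended in 4 of the 6 fits that left out 1 library. The count of lower cytosolic genes was 0 with total counts and 0 without DMSO replicate 2 at 2 h, DMSO replicate 1 at 6 h or DMSO replicate 3 at 6 h. From 6 to 12 h of DMSO 6 cytosolic genes and 1 mitochondrial gene were lower, where 35.4% of all genes were called, 18.7% higher and 16.8% lower. They were Yars (-1.29), Kars (-1.25), Gars (-0.82), Farsb (-0.68), Farsa (-0.67), Mars1 (-0.64) and Tars2 (-1.22). The representation of long against short transcripts differs between the same libraries, and its part was not tested beyond the following value: with an offset for transcript length and GC content, Eprs from 2 to 6 h of DMSO was at 0.50 instead of -0.61, Mars2 at 0.56 instead of -1.06 and Sars2 at -0.51 instead of 0.67, and 9 cytosolic genes were called instead of 15. With the same offset the drug comparisons gave 13 cytosolic genes instead of 14 and 3 mitochondrial genes instead of 2 at 6 h, and 10 cytosolic genes instead of 8 at 12 h. Over all genes the offset gave 6726 calls instead of 8955 from 2 to 6 h of DMSO. The drug comparisons gave 4978 over all genes instead of 3926 at 6 h and 3292 instead of 2356 at 12 h.

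Genes around the synthetases were read from lists for each step of tRNA use. Among enzymes that act on charged tRNA in mitochondria, Mtfmt, the formyltransferase of the initiator tRNA, fell by 0.68 on the log2 scale at 2 h (SE 0.16, adjusted p = 0.021) and by 0.47 at 6 h (SE 0.16, adjusted p = 0.044), and the 3 subunit genes of the glutaminyl-tRNA amidotransferase did not pass. Of 13 genes for processing and modification of mitochondrial tRNA, 3 rose at 6 h and none fell, a share near the 21.8% called over all genes (13.0% higher, 8.79% lower). They were Trmt61b, a methyltransferase, by 1.96 (SE 0.45), Trit1, an isopentenyltransferase, by 1.0 (SE 0.22), and Elac2, which cuts the 3′ end of precursor tRNA, by 0.70 (SE 0.19). Trmt61b had low levels, with a mean of 1.68 CPM in the controls and 6.59 CPM with the drug. In recovery 6 of the 13 were lower than at 6 h of the drug and none was higher, where 25.5% of all genes were called and 13.9% were lower. The 4 with the largest differences were Trmt61b (-2.40), Trmt10c (-1.35), Trit1 (-1.17) and Pus1 (-1.06), and this comparison shares the thapsigargin libraries with the one at 6 h.

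Of 7 genes for editing in trans and release of stalled charged tRNA, Prorsd1 rose at 6 h by 0.82 (SE 0.22, adjusted p = 0.014) and the other 6 did not pass. Xpot, the nuclear export receptor for tRNA, rose by 1.62 at 6 h (SE 0.44, adjusted p = 0.015). In its list of 4 genes the other 3, Sepsecs, Pstk and Tarsl2, did not pass. Of the 6 cytosolic elongation factor genes and the 9 mitochondrial translation factor genes, 0 passed at 6 h, with medians of -0.17 and 0.05. Of the 77 mitochondrial ribosomal protein genes tested, 0 rose and 3 fell at 6 h, Mrpl18 (-1.59), Mrpl41 (-1.05) and Mrpl49 (-0.91), with a median of -0.13. The counts over these lists are read beside the 21.8% called over all genes.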

How the data were processed

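Polyadenylated RNA of 19 C2C12 libraries in 7 groups was analysed. The deposited files hold read counts per gene, 1 value per library. The tools named, per the submitters' processing notes, are Trim Galore, STAR 2.5.3a, bedtools 2.31.0 and DESeq2, with mm10 as the build and no role for any of them. How reads were counted, on which strand and against which gene models is not given in the sources used here. The 5 lines of unassigned reads per file, 13.7% to 28.7% of the reads listed, were left out.

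Counts were fitted in 1 model over all groups with edgeR 4.0.16 in R 4.3.3 (TMM scaling, filterByExpr, quasi-likelihood test, two-sided, Benjamini-Hochberg adjustment over 18039 genes, called at adjusted p under 0.05). The common biological coefficient of variation was 0.352, CPM are on TMM-scaled library sizes, and an SE is the log2 difference divided by the square root of F. On simulated counts of the 6 h comparison with 17375 genes, 100 genes were changed 2-fold, 100 were changed 4-fold and the rest were equal. There 14% of 2-fold and 95% of 4-fold changes were recovered, with 2.7% false calls. The data had 3926 genes called, so the adjusted threshold differs there and these shares do not carry over. Named were all members that were called, values in every library for those with the largest differences at 6 h or called against their class, and up to 4 called genes a context list. The members and lists were chosen with earlier results of these data known. Labels do not say whether replicates are separate cultures, so the p-values rest on a spread that may be technical. Alternatives were other scalings, filters and fits, DESeq2 1.42.0, and each library left out.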

Additional observations from a re-analysis of the deposited data

Results flagged for a closer look

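The difference between the responses at 2 and 6 h was past the threshold for 3 cytosolic genes in edgeR's quasi-likelihood test with Benjamini-Hochberg adjustment: Aars (0.93, SE 0.23), Gars (1.10, SE 0.27) and Rars (0.86, SE 0.20), each on the log2 scale, with a larger response at 6 h. In each of the 3 genes all treated libraries at 6 h lay above all controls. The call ended without any 1 of 9, 9 and 7 of the 12 libraries in turn, with the adjusted p reaching at most 0.11 for Aars, 0.1 for Gars and 0.069 for Rars. It also ended under 3, 3 and 2 of the 9 other settings.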

How the results depend on the processing

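At 6 h the cytosolic count of 14 stayed between 12 and 14 under every setting that kept all libraries of that comparison. Over all genes those settings called from 2567 (a mean of at least 5 CPM) to 6588 (without the 2 libraries of high mitochondrial share). The mitochondrial count of 2 was 1 with total counts, 1 with no filter and 5 without the 2 libraries of high mitochondrial share. At 2 h the cytosolic count of 2 was 0 with no filter and 8 with only the groups compared. Over all genes those fits called 592 and 2404, against 816 in the main fit. The mitochondrial count of 0 was 1 with total counts, 1 with length and GC offsets, 1 with DESeq2, 3 with only the groups compared and 2 without the 2 libraries. In the same order 518, 1544, 1693, 2404 and 1859 were called over all genes. At 12 h the cytosolic count of 8 was 18 with only the groups compared and 14 without the 2 libraries. Over all genes those fits called 8847 and 4539, against 2356 in the main fit. The mitochondrial count of 1 was 0 with total counts, 0 with no filter, 2 with a mean of at least 5 CPM, 3 with DESeq2, 12 with only the groups compared and 5 without the 2 libraries. In the same order 1546, 1861, 1816, 3050, 8847 and 4539 were called over all genes. With length and GC offsets the 1 mitochondrial gene called was not Wars2.

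In recovery against thapsigargin the cytosolic count of 12 was 4 and the mitochondrial count of 4 was 0 with only the groups compared, and the latter was 7 without the 2 libraries. Over all genes those fits called 1403 and 6249, against 4601 in the main fit. In recovery against DMSO the mitochondrial count of 0 was 1 with no filter, where 65 were called over all genes, against 59 in the main fit. For the response at 6 h minus that at 2 h, the cytosolic count of 3 was 6 with RLE factors, 6 with the 5 CPM minimum, 6 with offsets, 6 with DESeq2, 7 with only the groups compared, 8 without the 2 libraries, 1 with total counts and 0 with no filter. Over all genes 761, 645, 1402, 1557, 1002, 1975, 321 and 515 were called in the same order, against 719 in the main fit. The mitochondrial count of 0 was 1 with offsets and 1 without the 2 libraries.

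Between DMSO at 2 and 6 h the cytosolic count of 15 was 7 with total counts, 8 with no filter and 9 with offsets, and the mitochondrial count of 7 was 3 with total counts, 4 with no filter and 12 without the 2 libraries. Over all genes 8955 were called in the main fit. The count was 7114 with total counts, 8311 with no filter, 6726 with offsets and 10360 without the 2 libraries. Between DMSO at 6 and 12 h the cytosolic count of 6 was 2 with total counts, 11 with only the groups compared, 11 with DESeq2 and 16 without the 2 libraries. The mitochondrial count of 1 was 0 with RLE factors, 0 with total counts, 3 with no filter, 2 with offsets, 2 with DESeq2, 6 with only the groups compared and 10 without the 2 libraries. Over all genes 6282, 4563, 6043, 3864, 7839, 7936 and 10088 were called in the same order, against 6393 in the main fit.

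Signs turned for Vars (-0.81) and Lars2 (-0.15) in recovery against thapsigargin without the 2 libraries, for Lars2 (-0.15 without recovery replicate 1, against 2.85 without recovery replicate 2), and with offsets between DMSO at 2 and 6 h for Eprs (0.50), Mars2 (0.56) and Sars2 (-0.51). With 1 library left out at a time, cytosolic counts ran from 0 to 1 at 2 h, 10 to 13 at 6 h and 9 to 15 in recovery against thapsigargin. They ran from 0 to 4 for 6 h minus 2 h and from 4 to 14 between DMSO at 2 and 6 h. Mitochondrial counts ran from 0 to 0, 1 to 2, 3 to 6, 0 to 0 and 4 to 7 in the same order. Leaving out a 12 h library leaves 1 in its group, so such counts are not given for comparisons with 12 h groups. Over all genes these fits called 320 to 670 at 2 h, 2897 to 3315 at 6 h and 3505 to 5356 in recovery against thapsigargin. They called 421 to 793 for 6 h minus 2 h and 6169 to 8820 between DMSO at 2 and 6 h. The cause of the changes with the setting was not tested.

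Replicate numbers are shared between groups, and the labels do not say whether a number marks a pair. Deviations of same-numbered libraries gave r of 0.303, -0.608 and 0.391 at 6 h and of -0.417, 0.686 and -0.505 between recovery and DMSO, so not every pair went together and the numbers were not taken as pairs. For thapsigargin at 12 h the sample titles give replicates 1 and 2 where the deposited tables are numbered 2 and 3, and the blocked values at 12 h rest on the titles. With the replicate block the cytosolic count was 1 at 2 h, 13 at 6 h, 8 at 12 h, 12 in recovery against thapsigargin, 1 for 6 h minus 2 h, 14 between DMSO at 2 and 6 h and 2 between DMSO at 6 and 12 h. Over all genes 602, 3457, 1980, 3943, 504, 8285 and 4395 were called with the block in the same order. The mitochondrial count with the block was 0 at 2 h, 2 at 6 h, 0 at 12 h and 0 between DMSO at 6 and 12 h.

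The simulation, which recovered 14% of 2-fold changes, changed far fewer genes than were called in the data. Its share therefore does not give the power of the 6 h comparison. A p above the threshold still does not show an equal level, least of all for the mitochondrial genes with their larger errors.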
